A study of Mus musculus with 48 samples.

Results

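The genes described here encode subunits of the vacuolar proton pump (V-ATPase): Atp6v0d2, Atp6v0d1, Atp6v0a1, Atp6v0a2, Tcirg1, Atp6v1a, Atp6v1b2, Atp6v1c1, Atp6v1h and Atp6ap1. They are 10 of the 35870 genes in the count table, found by symbol, and 15 further subunit genes of the same pump were read beside them. The 10 were listed and selected from earlier results of these same libraries, with no contrast or threshold named in the rule, so their own levels and folds are given as a description, without a p-value. All 10 passed the filter on low counts in both tissues. The libraries came from male C57BL/6 wild-type mice and fall into 6 groups of 8. For each tissue there were mice aged 23 months that took a Csf1r inhibitor for 5 days and then recovered for 7 days (repopulated), mice aged 23 months on vehicle (old) and mice aged 3 months on vehicle (young). Brain microglia, which are tissue macrophages, were isolated by flow cytometry as Cd11b+ Cd45+ cells, and the spinal cord was taken whole. Csf1r signalling keeps microglia alive, so the inhibitor empties the niche and its withdrawal lets the cells return. The labels do not state that the libraries of a group are separate mice, nor whether the tissues share mice, so errors and p-values reflect library-to-library spread, which may be partly technical.

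The V-ATPase pumps protons into lysosomes, endosomes and secretory vesicles. Its cytosolic V1 sector hydrolyses ATP, and its membrane V0 sector carries the protons across. Several subunits exist as copies encoded by separate genes, and the choice of copy differs between cell types and compartments. Macrophages and microglia depend on acid lysosomes to degrade what they engulf, and osteoclasts, macrophage relatives that resorb bone, place the pump in their outer membrane. Subunit d sits between the sectors and couples ATP hydrolysis to proton flow. Atp6v0d1 is its ubiquitous copy and Atp6v0d2 a copy found in osteoclasts, macrophages and some epithelia.

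The libraries held 15909868 to 34496308 reads in genes. Of 9 microglial markers (P2ry12, Tmem119, Sall1, Cx3cr1, Csf1r, Siglech, Gpr34, Fcrls, Olfml3), none was below 1 CPM (reads of a gene scaled to the library's size) on average in any sorted group, whereas 8 of 10 neuronal markers were. Other lineages were present at low levels. Of 10 markers each, 0 astrocyte, 0 endothelial and 1 oligodendrocyte marker fell below 1 CPM in each sorted group. Median oligodendrocyte marker sums were 278 CPM in repopulated, 469 CPM in old and 301 CPM in young microglia. Those of astrocytes were 142 CPM in repopulated, 363 CPM in old and 390 CPM in young microglia. The sorted groups also differed in other myeloid markers. The summed level of 10 neutrophil markers had medians of 1410 CPM in repopulated, 4850 CPM in old and 525 CPM in young microglia, and that of 10 monocyte markers ran from 300 to 778 CPM in repopulated, from 683 to 1610 CPM in old and from 129 to 305 CPM in young microglia. The median marker sums of border macrophages, the macrophages of brain vessels and coverings, were 97.5 CPM in repopulated, 489 CPM in old and 227 CPM in young microglia. The summed microglial markers themselves were 39600 CPM in repopulated, 37800 CPM in old and 55000 CPM in young microglia. In the cord, repopulated library 6 stood apart: 3.1% of its reads fell in ribosomal protein genes, against 1.07% to 1.24% in the other repopulated cord libraries. Results that rest on it are given with and without it.

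Levels between genes were compared in TPM, a scaled value that also divides by gene length. In sorted microglia the accessory subunit Atp6ap1 led the 10 genes, with 391 ± 30.9 TPM in repopulated, 500 ± 40.1 TPM in old and 506 ± 23.1 TPM in young libraries (SD, n = 8 each). Atp6v0d1 came next with 191 ± 22.9 TPM in repopulated, 210 ± 15.1 TPM in old and 222 ± 10.9 TPM in young microglia. Atp6v1b2, Tcirg1, Atp6v1c1 and Atp6v0a1 followed at 97 to 180 TPM. Their order changed between groups, and neighbours in each order overlapped in their ranges, except that Atp6v1b2 and Atp6v1c1 met at 140 TPM without overlap in young microglia. Atp6v0a2 came below them at 81 to 117 TPM. Atp6v1a, the catalytic subunit, was lower at 38.3 to 47 TPM, and Atp6v1h, a regulatory subunit, lower still at 15.4 to 23.5 TPM, without overlap between Atp6v1a and Atp6v1h in any of the 3 groups. Atp6v0d2 was last in all 3 groups, at 1.81 ± 2.21 TPM in repopulated, 0.726 ± 0.496 TPM in old and 0.101 ± 0.138 TPM in young microglia. In the cord the order was different: Atp6v1b2 led with means of 628 to 688 TPM, Atp6v1a stood at 257 to 306 TPM, and Tcirg1 was second from the bottom at 24 to 35.9 TPM. Atp6v0d2 was again the lowest, with 6.12 ± 1.62 TPM in repopulated, 6.55 ± 1.93 TPM in old and 0.13 ± 0.0874 TPM in young cords.

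Differences between groups were read from the counts, scaled to CPM, with edgeR's quasi-likelihood test. A gene was called where its Benjamini-Hochberg adjusted p over all genes tested in that tissue was below 0.05. The other gene lists were also chosen with earlier results of these data known. Genes were named from them by smallest adjusted p, except the pump's other subunit genes. Adjusted p-values printed for such genes are therefore a description, not a test of the lists. Between old and young microglia 3 of the 10 genes were called higher, where 11% of all 14382 genes tested were, and 1 lower, where 10.7% were. Between repopulated and old microglia 2 were called higher, against 9.05% of all genes, and 2 lower, against 7.2%. Between repopulated and young microglia 4 were called higher, against 16.1% of all genes, and 2 lower, against 16.5%. In the cord 2 genes were called higher in old than in young libraries, against 4.88% of 18271 genes, and 0 lower, against 1.26%. Between repopulated and old cords edgeR called 0 of the 10 genes in either direction, against 0.148% of all genes higher and 0% lower. By edgeR 1 of the 10, Tcirg1, had an unadjusted p below 0.05 there, and DESeq2 also called 0. Over all 18271 genes in that comparison edgeR gave 869 an unadjusted p below 0.05 in the higher direction, that of Tcirg1. In the lower direction it gave 230. Between repopulated and young cords 2 were called higher, against 7.28% of all genes, and 0 lower, against 2.78%. The median log2 fold of the 10 was 0.10 for old over young microglia and lay between -0.03 and 0.10 in the other 5 comparisons, beside medians between -0.06 and 0.01 over all genes. The summed level of the 10 was 1907 ± 40.5 CPM in repopulated, 1891 ± 96.5 CPM in old and 1923 ± 72.8 CPM in young microglia, with overlapping ranges.

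Atp6v0d2 lies at chr4:19876841-19922605 on the minus strand of GRCm38. In repopulated microglia its reads in libraries 1 to 8 were 239, 3, 78, 42, 315, 43, 17 and 35. In old microglia they were 20, 8, 54, 32, 21, 32, 20 and 85, and in young microglia 0, 14, 17, 11, 0, 0, 0 and 1. The young libraries were at or near 0 in 5 of 8, 7 of the 8 old libraries lay above every young one by CPM, and repopulated libraries 1 and 5 stood far above the other 6. Means were 3.89 ± 4.88 CPM in repopulated, 1.26 ± 0.868 CPM in old and 0.161 ± 0.218 CPM in young microglia (SD, n = 8 each). The log2 fold was 2.93 for old over young microglia (SE 0.89) and 4.55 for repopulated over young (SE 0.94), and both were called. Repopulated over old gave a log2 fold of 1.62 (SE 0.81), which was not called. Without repopulated libraries 1 and 5 that last value was 0.17, and repopulated over young was 3.12 and remained called. On the log2(TPM + 1) scale, which shrinks the change of low genes, old over young was 0.61 and was not called by limma. The old libraries also held the highest neutrophil, monocyte and border macrophage marker sums, and the part of such cells in the Atp6v0d2 reads was not tested.

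In whole cord Atp6v0d2 and Tcirg1 were the 2 members called, and Atp6v0d2 had the larger fold. The median library held 248 reads in repopulated cords, 248 in old cords and 4 in young cords. By CPM the libraries ran from 5.86 to 12.9 in repopulated, from 5.35 to 13.8 in old and from 0.0425 to 0.444 in young cords. No old or repopulated library overlapped a young one, and the repopulated and old ranges overlapped. The means were 9.45 ± 2.56 CPM in repopulated, 9.2 ± 2.61 CPM in old and 0.187 ± 0.13 CPM in young cords (SD, n = 8 each). Old cords were 48.5-fold higher than young cords, a log2 fold of 5.6 (SE 0.29), and repopulated cords 49.7-fold higher than young cords (log2 5.63, SE 0.29). Repopulated over old was 0.03 (SE 0.20). In whole tissue, more cells of a type and more RNA per cell cannot be told apart. Of the 9 microglial markers, 4 were called higher in old than in young cords, against 4.88% of all genes. For repopulated over young cords 6 were, against 7.28%. Their median summed levels were 372 CPM in repopulated, 315 CPM in old and 237 CPM in young cords. Set against those markers, Atp6v0d2 gave a median of 25.5 reads per 1000 marker reads in repopulated cords (range 15.5 to 35.4), 27.9 in old cords (17.4 to 45.8) and 0.703 in young cords (0.184 to 1.8). Old and young cords did not overlap in this ratio either. The markers themselves differed with age in the sorted cells. All 9 were called lower in old than in young microglia (log2 -0.78 to -0.42), against 10.7% of all genes. The ratio is therefore not a level per cell. In the sorted microglia the same ratio was 0.0411 in repopulated, 0.0267 in old and 0.000275 in young libraries at the median. Its highest value in any sorted library was 0.419, below all 16 repopulated and old cord libraries. That gap was not particular to Atp6v0d2. Per 1000 marker reads, Tcirg1 ran from 3.55 to 7.49 in sorted libraries and from 104 to 139 in cords. Atp6v0d1 ran from 2.42 to 6.03 in sorted libraries and from 389 to 967 in cords. The marker sums ran from 33600 to 57400 CPM in sorted libraries and from 205 to 487 CPM in cords.

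**Figure D1:**
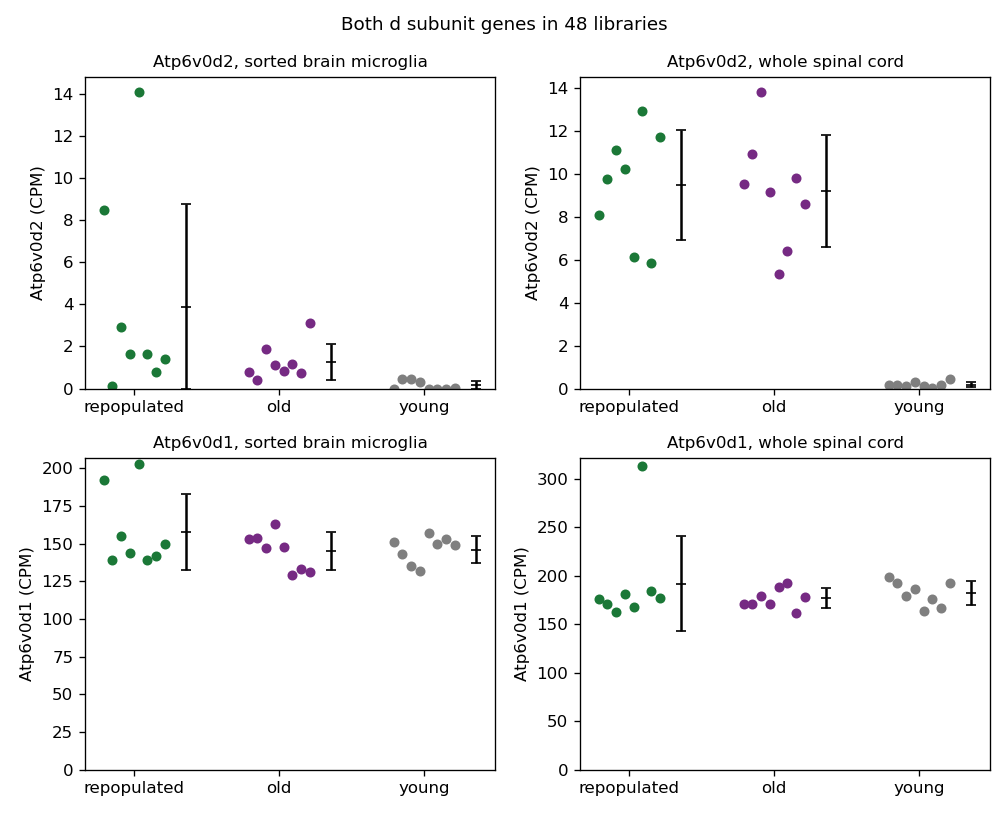
CPM (reads scaled to library size) of Atp6v0d2 (top) and Atp6v0d1 (bottom) in each library of sorted brain microglia (left) and whole spinal cord (right), by group. Points are libraries, bars the mean ± SD of 8, with the axis starting at 0. Atp6v0d2 lay between 5.35 and 13.8 CPM in all old and repopulated cords and at or below 0.444 CPM in young cords. Atp6v0d1 overlapped between groups, with repopulated cord library 6 at 313 CPM.

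Atp6v0d1, the ubiquitous d copy, lies at chr8:105524465-105566047 on the minus strand. edgeR called it in none of the 6 comparisons. In microglia it ran from 139 to 203 CPM in repopulated (median 147), from 129 to 163 CPM in old (median 147) and from 132 to 157 CPM in young libraries (median 149). The highest repopulated values, 203 and 192 CPM, were in libraries 5 and 1, which also held the most Atp6v0d2 reads. In the cord the medians were 176 CPM in repopulated, 174 CPM in old and 183 CPM in young libraries. Its log2 folds lay between -0.05 and 0.13 (SE 0.08 to 0.10), and leaving out any single library moved none of them beyond -0.07 to 0.16. On the TPM scale repopulated over young microglia was -0.22 and was called lower by limma, beside a median of -0.28 over all genes there. Atp6v0d2 made up 0.836% ± 0.905 of the d subunit's TPM in repopulated, 0.354% ± 0.264 in old and 0.0464% ± 0.0628 in young microglia (SD, n = 8 each). In the cord its share was 1.95% ± 0.515 in repopulated, 2.04% ± 0.606 in old and 0.04% ± 0.0263 in young libraries. The largest share in any library was 2.96%, in an old cord, so at least 97% of d transcripts by TPM were Atp6v0d1 in all 48 libraries.

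The MiT/TFE transcription factors, Tfeb and Tfe3 among them, switch on lysosomal genes by binding E-box sequences with the letters CACGTG. RefSeq promoter windows (GRCm38.p6, 250 bases before to 50 bases after the start) were on hand for 5 of the 10 genes: Atp6v0d1, Atp6v0a1, Tcirg1, Atp6v1a and Atp6ap1. The letters CACGTG, which read alike on both strands, were in the windows of 2 of these, Atp6v0d1 and Atp6v1a, and in 7.15% of all 32851 windows in the table. In both genes they were part of TCACGTGA, which also reads alike on both strands and is in 0.974% of all windows. The 6 letters CACGTG began 3 bases before the RefSeq start of Atp6v0d1 and 131 bases before that of Atp6v1a. RefSeq starts need not match the gene limits given here, which are GENCODE's. The RefSeq start of Atp6v0d1 lay 17 bases upstream of the GENCODE gene, while those of Atp6v1a (position 44139259) and Atp6v0a1 (101010398) lay inside it, as do their whole windows. The windows of Atp6v0d1 and Atp6v1a are printed 5′ to 3′ on the gene's strand because they show where the letters fall, with CACGTG in capitals. They span chr8:105566015-105566314 and chr16:44139210-44139509, both on the minus strand.
Atp6v0d1: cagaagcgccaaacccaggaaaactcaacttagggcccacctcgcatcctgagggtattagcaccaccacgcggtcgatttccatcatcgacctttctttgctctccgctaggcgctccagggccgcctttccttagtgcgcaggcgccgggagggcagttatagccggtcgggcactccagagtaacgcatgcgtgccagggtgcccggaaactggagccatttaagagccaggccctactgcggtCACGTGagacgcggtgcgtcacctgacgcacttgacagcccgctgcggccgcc
Atp6v1a: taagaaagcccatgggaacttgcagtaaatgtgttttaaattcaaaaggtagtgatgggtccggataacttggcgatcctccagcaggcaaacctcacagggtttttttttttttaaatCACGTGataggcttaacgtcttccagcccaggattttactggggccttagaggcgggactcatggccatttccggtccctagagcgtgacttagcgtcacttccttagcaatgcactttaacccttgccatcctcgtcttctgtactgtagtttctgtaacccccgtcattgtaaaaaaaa
Among 14 other subunit genes with a window, Atp6v0b and Atp6v0e held CACGTG. A match here is a string of letters, and binding was not measured.

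Tfeb and Tfe3 themselves were lower in old than in young microglia, each called by edgeR. Tfeb averaged 61.1 ± 5.69 CPM in old and 77.4 ± 7.76 CPM in young microglia (SD, n = 8 each), a log2 fold of -0.34 (SE 0.08, edgeR adjusted p = 0.002). Tfe3 averaged 205 ± 15.7 CPM in old and 251 ± 12.3 CPM in young microglia, a log2 fold of -0.29 (SE 0.06, edgeR adjusted p = 0.00096), and its ranges did not overlap. Both were also lower in repopulated than in young microglia, by log2 folds of -0.43 for Tfeb (edgeR adjusted p = 8e-05) and -0.40 for Tfe3 (edgeR adjusted p = 9.5e-06). Of the 4 factors in the list, these 2 were called in those comparisons. Of all genes, 10.7% were called lower in old and 16.5% lower in repopulated than in young microglia. Between repopulated and old microglia 0 of 4 were called by edgeR, with 1 at an unadjusted p below 0.05. Total-count scaling called Tfeb (-0.26) and Tfe3 (-0.27) lower there, where 19.3% of all genes were called lower.

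The a subunit forms the half-channels through which protons pass and steers the pump to its compartment. Its copies are Atp6v0a1 (chr11:101009452-101063719, plus strand), abundant in neurons, Atp6v0a2 (chr5:124628576-124724455, plus strand), known from the Golgi and endosomes, and Tcirg1 (chr19:3896050-3907133, minus strand). Tcirg1 encodes a3, the copy of lysosomes and of the osteoclast membrane, whose loss causes osteopetrosis. In microglia Tcirg1 was on average the largest part of the a subunit, with 43.4% ± 3.58 of its TPM in repopulated, 42.2% ± 3.06 in old and 39.2% ± 4.19 in young libraries (SD, n = 8 each). Its lead over Atp6v0a1 was small against the spread in old (160 ± 25.8 against 137 ± 18.1 TPM) and young microglia (180 ± 35.7 against 160 ± 15.3 TPM). In repopulated microglia the means were 138 ± 21.2 and 97 ± 10.9 TPM. In the cord Atp6v0a1 held 74.7% to 78.1% of the a subunit, and Tcirg1 10.9% ± 2.32 in repopulated, 9.11% ± 0.728 in old and 6.72% ± 0.632 in young libraries.

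Atp6v0a2 was lower in old microglia, at 159 to 198 CPM (median 188), than in young microglia, at 241 to 268 CPM (median 254), and the ranges did not overlap. In repopulated microglia it ran from 192 to 243 CPM (median 228), between the other groups. The log2 fold was -0.46 for old over young (SE 0.06), 0.27 for repopulated over old (SE 0.06) and -0.19 for repopulated over young (SE 0.06), all 3 called. The last was not called with DESeq2 size factors, without the low-count filter or without repopulated libraries 1 and 5. Repopulated over old was 0.11 with total-count scaling and 0.02 on the TPM scale, neither called, where the median of all genes was -0.21. Atp6v0a2 was not called in the cord, where its medians were 97.6 CPM in repopulated, 95.9 CPM in old and 99.9 CPM in young libraries.

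Atp6v0a1 was lowest in repopulated microglia, at 186 to 237 CPM (median 201), against 216 to 266 CPM in old (median 238) and 245 to 308 CPM in young microglia (median 269). The repopulated and young ranges did not overlap. The log2 fold was -0.24 for repopulated over old (SE 0.06) and -0.40 for repopulated over young (SE 0.06), both called, and -0.16 for old over young (SE 0.06), which was not. In the cord its log2 folds were -0.03 for old over young, -0.04 for repopulated over old and -0.07 for repopulated over young (SE 0.03 each), with no call.

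Tcirg1 differed between groups in the cord and not in microglia by edgeR's calls. In microglia it ran from 194 to 296 CPM in repopulated (median 226), from 196 to 263 CPM in old (median 220) and from 203 to 311 CPM in young libraries (median 230), with no call. In the cord it ran from 38.9 to 66.2 CPM in repopulated (median 42), from 33.3 to 42.4 CPM in old (median 38.6) and from 24 to 31.1 CPM in young libraries (median 28.4). All old and all repopulated cords lay above all young cords. The log2 fold was 0.45 for old over young (SE 0.09) and 0.70 for repopulated over young (SE 0.09), and both were called. Without repopulated cord library 6 the value for repopulated over young was 0.60 and remained called. Repopulated over old was 0.25 (SE 0.09), not called, and 0.15 without library 6. Against the microglial markers, the median was 121 Tcirg1 reads per 1000 marker reads in repopulated, 116 in old and 121 in young cords. In the sorted microglia the medians were 6.18 in repopulated, 5.87 in old and 4.16 in young libraries. The markers differed with age in the sorted cells, so this ratio is not a level per cell. The part of microglial number in the cord values was not tested. Per marker read the ranges of Tcirg1 overlapped between the groups, at 104 to 136 in repopulated, 108 to 139 in old and 107 to 131 in young cords, whereas those of Atp6v0d2 in old and repopulated cords did not overlap with young cords.

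**Figure D2:**
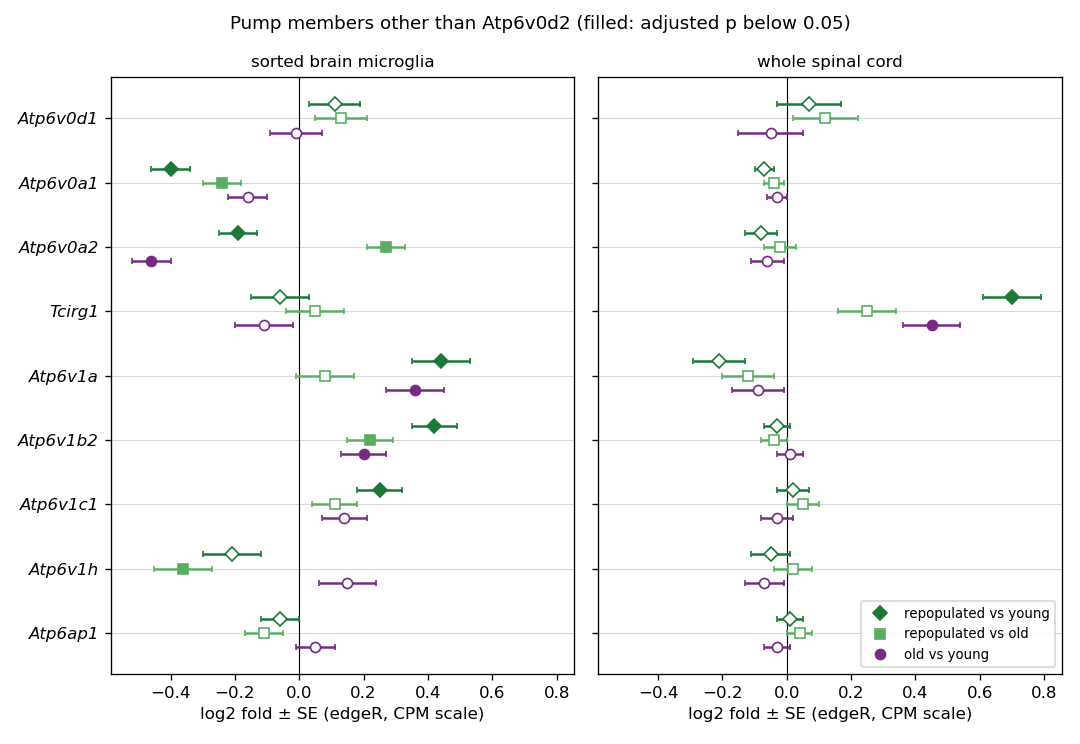
Log2 folds ± SE from edgeR (CPM scale) for the 9 members other than Atp6v0d2, in sorted brain microglia (left) and whole spinal cord (right). Each gene has 3 comparisons, and filled symbols are called at an adjusted p below 0.05. In microglia the calls were spread over 6 genes in both directions, from -0.46 for Atp6v0a2 to 0.44 for Atp6v1a, and in the cord both calls were for Tcirg1.

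In the V1 sector the A and B subunits form the ATP-hydrolysing head, C1 ties the outer stalks to the membrane sector when the pump assembles, and H regulates ATP hydrolysis in the freed sector. Atp6v1a (A, catalytic; chr16:44085402-44139705, minus strand) ran from 74.3 to 112 CPM in repopulated (median 94.9), from 74.9 to 98.3 CPM in old (median 90.3) and from 55.7 to 78.2 CPM in young microglia (median 68.6). The ranges overlapped, and 6 of 8 old libraries lay above every young one. Its log2 fold was 0.36 for old over young (SE 0.09) and 0.44 for repopulated over young (SE 0.09), both called, and 0.08 for repopulated over old (SE 0.09). On the TPM scale repopulated over young was 0.11 and not called, beside a median of -0.28 over all genes. In the cord edgeR did not call it, with -0.09 for old over young (SE 0.08) and -0.12 for repopulated over old (SE 0.08). Repopulated over young cord was -0.21 (SE 0.08), and without repopulated library 6, which held 253 CPM, it was -0.14 and called.

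Atp6v1b2 (B2, the B copy of brain and macrophages; chr8:69088646-69113711, plus strand) ran from 191 to 260 CPM in repopulated (median 233), from 170 to 215 CPM in old (median 198) and from 156 to 191 CPM in young microglia (median 175). The repopulated and young ranges did not overlap. The log2 fold was 0.20 for old over young (SE 0.07), 0.22 for repopulated over old (SE 0.07) and 0.42 for repopulated over young (SE 0.07), all 3 called. Old over young was not called without the low-count filter. Repopulated over old was 0.05 with total-count scaling and 0.17 without repopulated libraries 1 and 5, neither called. With total-count scaling the median over all genes was -0.21. On the TPM scale none of the 3 was called, with 0.13 for old over young, -0.04 for repopulated over old and 0.09 for repopulated over young. The medians over all genes on that scale were -0.08, -0.21 and -0.28. Its cord medians were 632 CPM in repopulated, 641 CPM in old and 650 CPM in young libraries, with no call.

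Atp6v1c1 (C1; chr15:38661933-38692446, plus strand) had medians of 132 CPM in repopulated, 120 CPM in old and 114 CPM in young microglia. Its log2 fold was called for repopulated over young microglia (0.25, SE 0.07), where total-count scaling gave 0.12 and the TPM scale -0.07, neither called. The medians over all genes were -0.19 with total-count scaling and -0.28 on the TPM scale. Atp6v1h (H; chr1:5070018-5162529, plus strand) ran from 30.7 to 38.9 CPM in repopulated (median 34.1), from 31.9 to 54.8 CPM in old (median 44.8) and from 35.9 to 45.8 CPM in young microglia (median 39.5). Its log2 fold was -0.36 for repopulated over old (SE 0.09), which was called although the ranges overlapped. Atp6ap1 (chrX:74297097-74304721, plus strand) encodes Ac45, an accessory protein that guides assembly of the membrane sector. It had medians of 584 CPM in repopulated, 619 CPM in old and 607 CPM in young microglia and was not called in any comparison. With total-count scaling it was called lower in repopulated microglia, by -0.27 against old and -0.19 against young, beside medians over all genes of -0.21 and -0.19.

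Calls in the repopulated microglia changed with the scaling. Ribosomal protein genes took 5.15% to 6.26% of reads in repopulated, 2.08% to 4.52% in old and 2.06% to 2.73% in young microglia, and their part in this was not tested. With total-count scaling, 0 of the 10 genes were called higher and 3 lower for repopulated over old, where 4.12% of all genes were higher and 19.3% lower. For repopulated over young it gave 3 higher and 4 lower, beside 12.1% and 26% of all genes. The TPM scale, with limma on log2(TPM + 1), gave 1 higher and 6 lower for repopulated over young, where 8.6% of all genes were higher and 42.7% lower with a median of -0.28. For repopulated over old it gave 0 higher and 3 lower, beside 3.44% and 29.8% of all genes. The lower calls of members on these scales thus came with many lower calls over all genes. DESeq2 size factors gave 4 higher and 1 lower for repopulated over young, beside 17.6% and 14.2% of all genes, and 2 higher and 2 lower for repopulated over old, beside 8.75% and 7.61%. Old over young microglia was 3 higher and 1 lower with either count scaling, where 11.6% of all genes were higher and 7.57% lower with total counts, and 11.9% and 7.64% with DESeq2 size factors. On the TPM scale it was 1 higher and 2 lower, beside 10.3% and 15% of all genes.

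Whether an effect differed between tissues was read from an interaction term, the microglia effect minus the cord effect, fitted over all 48 libraries and 19110 genes. For old over young, 0 of the 10 genes were called higher, against 5.44% of all genes, and 4 lower, against 15%. The 4 were Atp6v0d2 (log2 difference -2.77, SE 0.94), Tcirg1 (-0.72, SE 0.13), Atp6v0a2 (-0.56, SE 0.08) and Atp6v0a1 (-0.30, SE 0.07), beside a median of -0.15 over all genes. With DESeq2 size factors or total-count scaling that median was -0.01, Atp6v0a1 was no longer called, and Atp6v1a was called in the other direction at 0.45. Either scaling then gave 1 member higher, against 6.96% of all genes, and 3 lower, against 7.15% with DESeq2 size factors and 6.68% with total counts. For repopulated over old, 1 was called higher, Atp6v0a2 at 0.26 (SE 0.08), against 3.49% of all genes. Another 2 were lower, Atp6v1h at -0.41 (SE 0.11) and Atp6v0a1 at -0.23 (SE 0.07), against 7.54% of all genes. That split became 2 higher and 1 lower with DESeq2 size factors, beside 4.6% and 7.23% of all genes, and 0 higher and 3 lower with total-count scaling, beside 2.55% and 14.8%. Atp6v0d1 was not called in either, with -0.13 (SE 0.13) for old over young and -0.02 (SE 0.13) for repopulated over old.

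Of the 15 subunit genes outside the list, 10 could be tested in microglia. For old over young 2 were called higher, against 11% of all genes, and 0 lower, against 10.7%. Atp6v0c, the proteolipid of the rotor ring, averaged 214 ± 38.9 CPM in old and 168 ± 17.2 CPM in young microglia (SD, n = 8 each), a log2 fold of 0.35 (SE 0.09, edgeR adjusted p = 0.0059). Atp6v0e, a small membrane subunit, averaged 92.8 ± 18.8 CPM in old and 71 ± 6.24 CPM in young microglia, a log2 fold of 0.39 (SE 0.11, edgeR adjusted p = 0.0097). With DESeq2 size factors, total-count scaling or DESeq2's own test the count was 4 higher. The share of all genes higher was 11.9% with DESeq2 size factors and 11.6% with total counts. For repopulated over old, Atp6v1f, a stalk subunit, rose to 115 ± 24.4 CPM in repopulated microglia, against 80.5 ± 18.5 CPM in old microglia (log2 0.51, SE 0.12, edgeR adjusted p = 0.0037). Atp6v1e1, an outer-stalk subunit, fell to 80 ± 6.7 CPM in repopulated, against 96.1 ± 7.72 CPM in old microglia (log2 -0.26, SE 0.06, edgeR adjusted p = 0.003). For repopulated over young 4 rose and 0 fell by edgeR, against 16.1% of all genes higher and 16.5% lower. By edgeR's quasi-likelihood test they were Atp6v1f (log2 0.83, SE 0.12, adjusted p = 2.8e-06), Atp6v0e (0.60, SE 0.11, adjusted p = 6.1e-05), Atp6v0c (0.53, SE 0.09, adjusted p = 3.9e-05) and Atp6v1g1 (0.31, SE 0.11, adjusted p = 0.025). Atp6v1g1 missed the threshold without repopulated library 5. With total-count scaling the split was 3 higher and 3 lower for repopulated over young, beside 12.1% and 26% of all genes. For repopulated over old it was 1 higher and 2 lower, beside 4.12% and 19.3%. The genes called in none of these comparisons were Atp6v1d, Atp6v0b and Atp6ap2, with group means of 51 to 168 CPM, and Atp6v1g2 and Atp6v0e2, with group means of 1.79 to 3.63 CPM. The median log2 fold of the 10 was 0.20 for old over young, 0.01 for repopulated over old and 0.09 for repopulated over young, beside -0.01, -0.04 and -0.06 over all genes.

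In the cord 12 of the 15 could be tested, and edgeR called 1. Of all genes, 1.26% were called lower for old over young and 2.78% for repopulated over young. Atp6v0a4, the a copy of kidney and inner ear, averaged 0.405 ± 0.23 CPM in repopulated, 0.426 ± 0.138 CPM in old and 0.987 ± 0.285 CPM in young cords (SD, n = 8 each). Its log2 fold was -1.19 for old over young (SE 0.28, edgeR adjusted p = 0.0067) and -1.25 for repopulated over young (SE 0.28, edgeR adjusted p = 0.0036). Atp6v1b1 and Atp6v1g3, copies also known from kidney, and Atp6v1e2 were below the filter in both tissues, with group means of at most 0.187 CPM.

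The leading copies of the smaller subunits G and e were different genes in the sorted cells and in the cord. Atp6v1g1 held 97.8% to 98.7% of the G subunit's TPM in the sorted groups, while Atp6v1g2, the neuronal copy, held 67.8% to 69.2% in the cord. For subunit e, Atp6v0e held 98.2% to 98.8% in microglia and Atp6v0e2 83.3% to 86.1% in the cord. Atp6v0e took 16.7% ± 2.08 of subunit e in repopulated, 15.2% ± 0.984 in old and 13.9% ± 0.576 in young cords (SD, n = 8 each). Atp6v1b2 and Atp6v1c1 held at least 99.8% of the B and C subunits in all 6 groups on average.

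**Figure D3:**
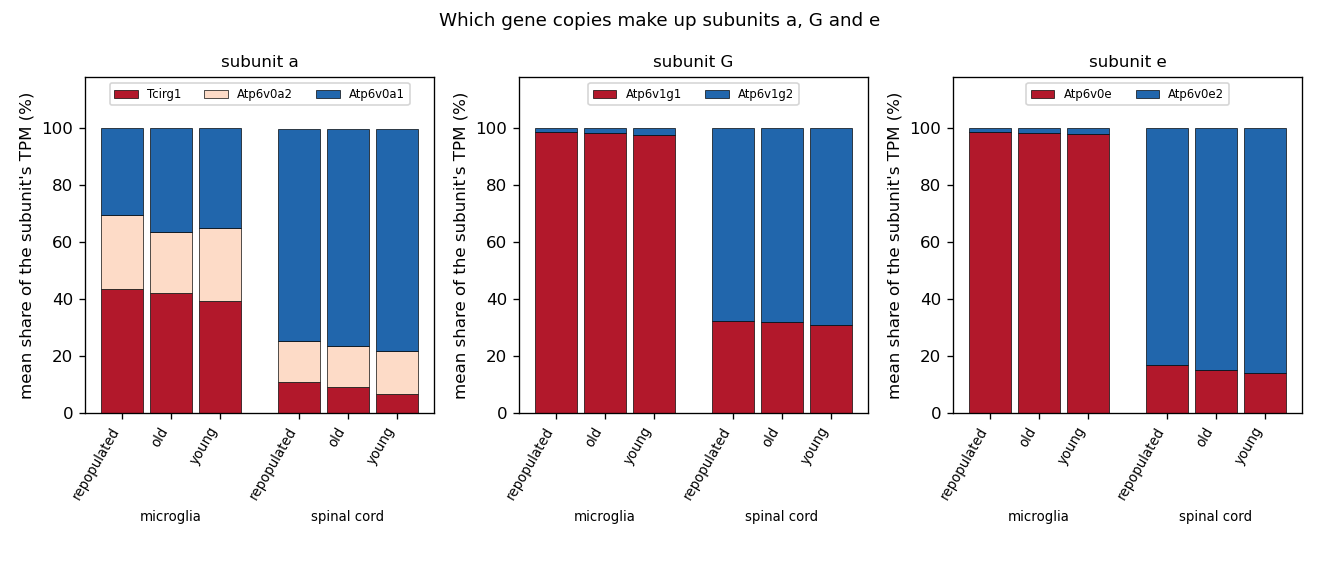
Mean share of each subunit's TPM held by its gene copies, for subunits a, G and e, in repopulated, old and young microglia (left bars of each panel) and spinal cords (right bars). Means are of 8 libraries. Tcirg1 held 39.2% to 43.4% of subunit a in microglia and 6.72% to 10.9% in the cord. Copies G1 and e, near 98% in microglia, were the minor copies in the cord.

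Among genes that help the pump assemble, 9 were tested in microglia. Of these, 1 was lower in old than in young libraries, against 10.7% of all genes. This was Rogdi, the mouse counterpart of a subunit of the assembly complex described in yeast, with 98.6 ± 14.6 CPM in old and 140 ± 10.3 CPM in young microglia (SD, n = 8 each; log2 -0.51, SE 0.08, edgeR adjusted p = 1.5e-05). It rose again in repopulated microglia, to 141 ± 12.4 CPM, against those 98.6 ± 14.6 CPM in old microglia (log2 0.52, SE 0.08, edgeR adjusted p = 2.1e-05), and neither pair of ranges overlapped. A further 13 genes encode lysosomal ion channels and the Ragulator and Rag proteins, which dock mTORC1 on the lysosome. Of these, 1 rose and 1 fell in old against young microglia, beside 11% and 10.7% of all genes. Rragd, a Rag GTPase, averaged 6.24 ± 1.77 CPM in old and 2.42 ± 0.612 CPM in young microglia (log2 1.36, SE 0.26, edgeR adjusted p = 0.00016). Slc38a9, the lysosomal arginine sensor, fell to 33.6 ± 4.44 CPM in old, against 41.7 ± 4.33 CPM in young microglia (log2 -0.31, SE 0.10, edgeR adjusted p = 0.017). In the cord 0 of 9 assembly genes and 0 of 13 ion and docking genes were called by edgeR for old over young, with 0 and 2 at an unadjusted p below 0.05. Of all genes there, 4.88% were called higher and 1.26% lower.

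Genes typical of osteoclasts were read beside Atp6v0d2 because that cell is where it was best described. Of 10, 7 could be tested in microglia. Acp5, the tartrate-resistant acid phosphatase, averaged 32.6 ± 58.1 CPM in repopulated and 2.74 ± 2.55 CPM in old microglia (log2 3.57, SE 0.76, edgeR adjusted p = 0.0011). Ctsk, cathepsin K, averaged 15.8 ± 25.6 CPM in repopulated and 0.348 ± 0.578 CPM in old microglia (log2 5.45, SE 1.07, edgeR adjusted p = 0.00039). Libraries 5 and 1 held 169 and 57.7 CPM of Acp5 and 71.1 and 38.1 CPM of Ctsk, and the other 6 repopulated libraries at most 9.46 and 7.59 CPM. These are the same 2 libraries that held the most Atp6v0d2 reads. Without them the log2 fold was 1.05 for Acp5 (edgeR adjusted p = 0.3) and 3.03 for Ctsk (edgeR adjusted p = 0.078). Mmp9, a matrix protease also made by neutrophils, averaged 64.3 ± 25 CPM in repopulated, 170 ± 69.4 CPM in old and 25.8 ± 7.38 CPM in young microglia. The neutrophil marker sums had the same order, and their part in this was not tested. Nfatc1, the transcription factor that drives osteoclast formation, fell to 168 ± 14.6 CPM in old, against 228 ± 11.1 CPM in young microglia (log2 -0.44, SE 0.07, edgeR adjusted p = 6.1e-06). For repopulated over young microglia 3 of the 7 tested rose and 2 fell by edgeR, beside 16.1% and 16.5% of all genes. In the cord edgeR called 0 of 8 osteoclast-type genes for old over young, with 3 at an unadjusted p below 0.05. Of all genes there, 4.88% were called higher and 1.26% lower. Ctsk averaged 8.37 ± 1.31 CPM in repopulated, 8.38 ± 0.971 CPM in old and 8.34 ± 1.01 CPM in young cords.

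The genes most like Atp6v0d2 were ranked by Pearson correlation of log2 CPM over the 24 microglia libraries, among 9327 genes. They were Mki67 (r = 0.90, Spearman's rho 0.90), Cdca3 (0.89, rho 0.85), Igf2r (0.87), Ccnb2 (0.87), Myo5a (0.86), Siglec1 (0.86), Mdfic (0.86) and Lmna (0.85). Mki67, Cdca3 and Ccnb2 are genes of dividing cells. Mki67 averaged 40.3 CPM in repopulated, 28.1 CPM in old and 7.74 CPM in young microglia, the same order as Atp6v0d2. Since the libraries share their group means, the ranking was repeated on deviations from the group mean, where the first 5 were Mki67 (0.73), Igf2r (0.72), Clec12a, Cdca3 and Wwp1 (0.71 each). Over the 22 libraries without repopulated libraries 1 and 5, r within groups was lower for all 10 genes named here, at 0.37 for Siglec1 and Lmna, 0.44 for Ccnb2 and up to 0.61 for Mki67 and Igf2r, against 0.60 to 0.73 over all 24. For Ctsk it was 0.27 without them and 0.50 over all 24, and for Acp5 0.20 and 0.46. Among the other members, Atp6v1a came nearest to Atp6v0d2 over the groups (r = 0.72), and r was 0.29 with Atp6v0d1. Within groups those values were 0.33 and 0.24.

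In the cord the young libraries form a cluster of their own, so only correlations within groups are given, from a ranking added after the values were seen. The first 5 were Anpep (r = 0.73), Nrros and Cebpa (0.72 each) and Lyz2 and Tnfrsf1a (0.68 each), over 24 libraries. Tcirg1 had r = 0.35 with Atp6v0d2 within groups. Gpnmb, a gene of lipid-laden macrophages chosen after its values were seen, averaged 163 CPM in repopulated, 129 CPM in old and 4.73 CPM in young cords. Atp6v0d1 followed other genes. In microglia these were Ppp1ca (r = 0.87, Spearman's rho 0.78), Atp5a1 (0.83, rho 0.59), Ddost (0.83, rho 0.72), Ube2l3 (0.82, rho 0.52) and Tubb5 (0.81, rho 0.5). Within groups its first 5 in microglia were Atp5a1 (0.87), Mpp1 and Ppp1ca (0.86 each), Tuba1c (0.85) and Bax (0.84), with rho from 0.71 to 0.8. These rankings for Atp6v0d1 were not repeated without repopulated libraries 1 and 5, which held its highest repopulated values.

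**Figure D4:**
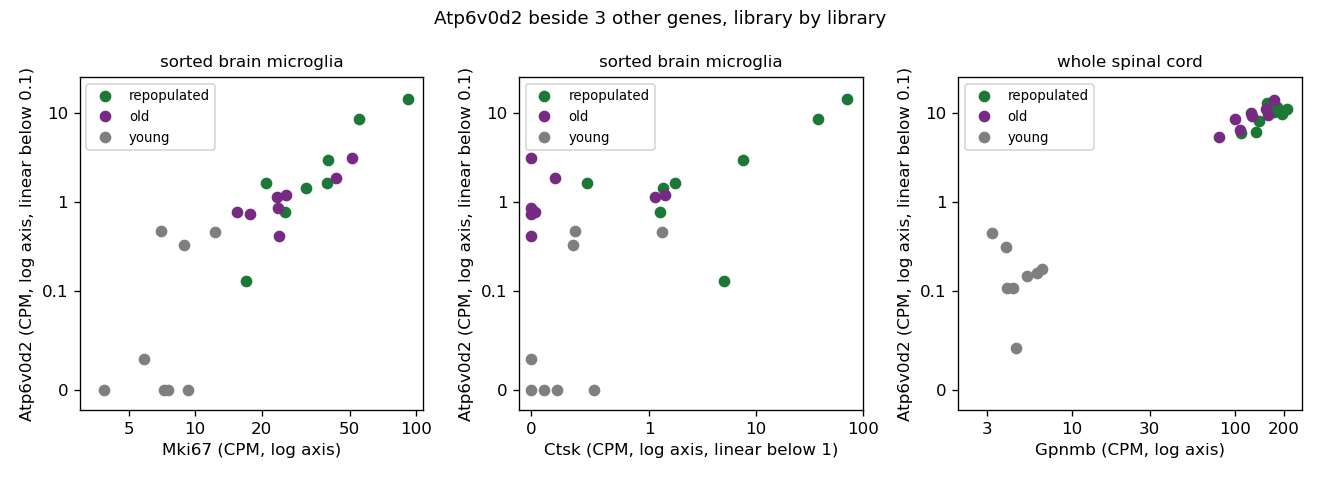
Atp6v0d2 (vertical axis, CPM, log scale, linear below 0.1) against Mki67 and Ctsk in sorted microglia and Gpnmb in whole cord (horizontal axes, CPM, log scale, linear below 1 for Ctsk). Points are libraries coloured by group. Mki67 tracked Atp6v0d2 across and within groups (r = 0.73 within), 2 repopulated libraries led both Ctsk and Atp6v0d2, and all young cords sat apart from the old and repopulated ones on both axes.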

How the data were processed

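RNA with poly-A tails was sequenced from 48 libraries, 8 in each of 6 groups, with a kit that does not mark strand, per the labels' protocols. The authors deposited read counts per gene, and TPM values that divide by gene length, each for 35870 genes; FPKM values were not used here. Tools and builds listed, per the submitters' processing notes, include STAR 2.5.2b and GRCm38.p5, with no role given. Groups came from the sample titles. The deposited counts were tested with edgeR 4.0.16 (TMM scaling, filterByExpr with a minimum count of 10 and total of 15, quasi-likelihood test, Benjamini-Hochberg adjustment over all genes) within each tissue over 24 libraries, and across tissues over 48 for interactions, in R 4.3.3. Genes were called at an adjusted p below 0.05. DESeq2 1.42.0, limma 3.58.1 on log2 TPM, other scalings and filters, and libraries left out were alternatives. The steps were tested on simulated data. Of 168 pairs of libraries within groups, none agreed within sampling noise. The members and gene lists were chosen with earlier results of these data known. One gene of the microglial marker list is not reported here and was left out of its sums and counts. Named were all members, the other subunit genes, up to 3 genes per list and comparison with the smallest adjusted p, and the genes most correlated with Atp6v0d2 and Atp6v0d1. Positions are those of GRCm38. Depth was 15909868 to 34496308 reads per library, so Atp6v0d2, at 0 to 315 reads in microglia, carries more counting error than the other members.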

Additional observations from a re-analysis of the deposited data

Results flagged for a closer look

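Within the 8 libraries of a group, 60 sets of values (10 genes in 6 groups) were looked at for a library far from the rest, and 8 were marked, where chance marks about 1 in 20. Repopulated cord library 6 held 7 of them. It was the highest of its group for Atp6v0d1 at 313 CPM (next 184), Tcirg1 at 66.2 CPM (next 48), Atp6v1c1 at 230 CPM (next 185), Atp6v1h at 184 CPM (next 148) and Atp6ap1 at 397 CPM (next 355). It was the lowest for Atp6v1a at 253 CPM (next 394) and Atp6v0a2 at 77.4 CPM (next 93.1). Atp6v0d2 did not stand apart in it. The same library held 3.1% of its reads in ribosomal protein genes, and the part of RNA quality in these values was not tested. Young cord library 8 was the highest for Atp6v1c1 at 200 CPM (next 181).

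Several effects differed between tissues by the interaction term of the edgeR fit, given as the microglia effect minus the cord effect on the log2 scale. For old over young they were Atp6v0d2 (-2.77), Tcirg1 (-0.72), Atp6v0a2 (-0.56) and Atp6v0a1 (-0.30). For repopulated over old they were Atp6v1h (-0.41), Atp6v0a2 (0.26) and Atp6v0a1 (-0.23). The median over all genes was -0.15 and -0.10 in these comparisons. These calls depended on the scaling. With DESeq2 size factors or total-count scaling, Atp6v0a1 was not called for old over young, and Atp6v1a was called in the other direction. For repopulated over old, total-count scaling called no member higher. The term sets sorted brain cells against whole spinal cord, so cell type and region cannot be told apart in it.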

How the results depend on the processing

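The number of members called stayed within 1.5 times its main value under every alternative run, though the split by direction moved with scaling in microglia. For the other subunit genes, 2 were called for old over young microglia, and 4 with DESeq2 size factors, total-count scaling, at least 1 CPM in 8 libraries, DESeq2's test or without old microglia libraries 2 and 7. For repopulated over old microglia 2 were called, and 4 by limma with either TPM pseudocount (1 or 0.1). In the cord 1 was called for old over young and 0 with at least 1 CPM in 8 libraries, and for repopulated over young 1, against 2 with total-count scaling or DESeq2's test and 0 with the CPM minimum. Without length correction Atp6v0d2 made up 2.06% of the d subunit in repopulated, 0.885% in old and 0.117% in young microglia. Both TPM scales turned the sign of Atp6v1b2 for repopulated over old microglia (-0.04 with pseudocount 1). For repopulated over young microglia they turned that of Atp6v0d1 (-0.22), Atp6v1c1 (-0.07), Atp6v1g1 (-0.02) and Rogdi (-0.31). With pseudocounts 1 and 0.1, the medians over all genes were -0.21 and -0.27 for repopulated over old microglia. For repopulated over young microglia they were -0.28 and -0.41. The cause of the turned signs was not tested. Of the single-gene folds, 1712 kept direction and side of the threshold, 36 lost a call, 49 gained one and 10 turned sign. Leaving out 1 library at a time, Atp6v0d2 ranged from 2.60 to 3.37 for old over young microglia, 0.95 to 1.98 for repopulated over old and 3.87 to 5.01 for repopulated over young, and from 5.47 to 5.89 for old over young cord. The setting without repopulated microglia libraries 1 and 5 was chosen after seeing the data. Same-numbered libraries of different groups within a tissue did not pair: between 1 and 4 of 8 pairs had a correlation of deviations over 0.1. Pairing of same-numbered microglia and cord libraries, which bears on the interaction fit, was not tested. With the replicate number as a block, members called were 4, 4 and 6 in the microglia comparisons and 2, 0 and 2 in the cord, the same counts as without it.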

Other observations

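Genes of the Ragulator and Rag docking proteins moved in both directions in repopulated microglia. By edgeR, Lamtor1 was higher than in old microglia (log2 0.35, SE 0.09, adjusted p = 0.0086) and Lamtor2 higher than in young microglia (0.48, SE 0.16, adjusted p = 0.02), while Rraga was lower than in young microglia (-0.33, SE 0.09, edgeR adjusted p = 0.0046). Of the 13 genes for lysosomal ions and docking, 3 rose and 2 fell for repopulated over young microglia, beside 16.1% and 16.5% of all genes. Among assembly genes, Tmem199 was lower in repopulated than in old microglia (-0.51, SE 0.17, edgeR adjusted p = 0.034). Vma21 was higher in repopulated than in young microglia (0.35, SE 0.13, edgeR adjusted p = 0.044).

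Per 1000 reads of the 9 microglial markers, Atp6v0d1 had a median of 3.69 reads in repopulated, 3.84 in old and 2.73 in young microglia. In the cord it ran from 389 to 642 in repopulated, from 461 to 669 in old and from 567 to 967 in young libraries, so by this measure young cords lay higher with overlap, whereas young microglia lay lower without overlap. In microglia this came with a higher marker sum in young libraries, at a median of 39600 CPM in repopulated, 37800 CPM in old and 55000 CPM in young microglia, while Atp6v0d1 itself had medians of 147 CPM in repopulated, 147 CPM in old and 149 CPM in young microglia. Tcirg1 had 6.18 reads in repopulated, 5.87 in old and 4.16 in young microglia by the same measure.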
